A study of Danio rerio with 4 samples.

Results

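In zebrafish (Danio rerio) embryos, 36 of 12931 array probes with usable spots had a lower normalised signal in klf4-MO than in STD-MO RNA. This held on every scanner array after normalisation, by the threshold given next. Before normalisation but after background correction, 3 of the 36 were lower in klf4-MO by any amount on all 3 arrays. A probe belonged to the set of 36 when its log2 ratio of klf4-MO over STD-MO was -0.5 or lower on each of 3 arrays. That is at least 1.41-fold lower. The ratios on these arrays thus chose the set and are given as a description, with no test. The 36 probes are 0.278% of the 12931, which were those of 16176 different probes that had an unflagged spot on all 3 arrays. With the sign turned, 51 probes were at 0.5 or higher on all 3.

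Each array is a 2-colour slide on which RNA from both kinds of embryo was hybridised together, after amplification and indirect labelling with Cy5 (red) and Cy3 (green). The groups are embryos that received a klf4 morpholino (klf4-MO) and embryos that received the morpholino named STD-MO in the labels. The titles number the RNA pairs 1, 2, 1 and 4, so the arrays are called 1a, 2, 1b and 4 here. klf4-MO RNA was red on arrays 2 and 4 and green on arrays 1a and 1b. The labels give the tag 18S without explaining it, and neither the strain, the stage, the number of embryos in an RNA sample, nor whether the pairs came from separate clutches. Errors below are therefore the spread between hybridisations, which may be technical. Array 1a did not enter the choice: its scanner file repeats that of array 2 byte for byte, and it was read from the authors' deposited value table.

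Morpholinos are stable antisense oligomers used to stop an RNA from being translated or spliced. The protein made from klf4 belongs to the Krüppel-like transcription factors, whose zinc fingers bind GC-rich and CACCC sites in promoters and which can activate or repress their targets. In zebrafish embryos the gene known by this name has been tied to the anterior mesendoderm that forms the hatching gland, whose cells secrete the enzymes that open the egg envelope. The scanner files name the members by library number only, so no gene, pathway or cell type is named for them here, and the level of klf4 itself was not analysed. The RNA is of embryos, so fewer cells of a type and less RNA per cell cannot be told apart.

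The set ran from a few strongly lower probes to many that were modestly lower. Of the 36 members, 2 had a mean log2 ratio of -2 or lower over arrays 2, 1b and 4, 10 had a mean above -2 and up to -1, and 24 had a mean above -1. The means ran from -3.40 to -0.61, with a median of -0.85. On single arrays the members' ratios ran from -4.32 to -0.51 on array 2 (median -0.91), from -2.59 to -0.53 on array 1b (median -0.79) and from -3.28 to -0.57 on array 4 (median -0.82). The medians of all 12931 probes were within 0.01 of 0 on each of these arrays. At -1 or lower on all 3 arrays were 6 members, or 0.0464% of the probes.

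The lowest member was CGENXEB_456000396_0, in block 28 of the slide. Its foreground intensity on array 2 was 1926 in klf4-MO and 20181 in STD-MO. It was 2257 in klf4-MO and 20595.5 in STD-MO on array 1b, and 5738.5 in klf4-MO and 11345.5 in STD-MO on array 4, over local backgrounds of 155 to 202. The klf4-MO channel was the dimmer one on every array, whichever dye it carried. After normalisation the log2 ratio was -4.32 on array 2 against -2.59 on array 1b and -3.28 on array 4. Their mean was -3.40 ± 0.870 (SD, n = 3), which is 10.5-fold lower. No array came near an equal level, and array 1b gave the smallest difference after normalisation. Before it array 4 did, at -0.98 against -3.41 on array 2 and -3.27 on array 1b, so the order of the arrays rests on normalisation.

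CGENXEB_456008399_0 followed, in block 18. Its foreground was 23047.5 in klf4-MO and 65319 in STD-MO on array 2, then 14504.5 and 65285 on array 1b and lastly 20381 and 28680 on array 4. The STD-MO readings of arrays 2 and 1b are at the scanner's ceiling, so the ratios of -2.46 and -1.47 there may be too small in size. On array 4, where neither channel was saturated, the ratio was -2.82. The mean of all 3 arrays was -2.25 ± 0.696 (SD, n = 3), which is 4.76-fold lower with the saturated readings taken at their value.

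CGENXEB_456011738_0, in block 15, had the next lowest mean and was lower in klf4-MO on every array. Its foreground was 1006 in klf4-MO and 1756 in STD-MO on array 2, then 690 and 2422 on array 1b and lastly 651.5 and 821 on array 4. The log2 ratios were -1.56, -1.53 and -2.06, with a mean of -1.72 ± 0.294 (SD, n = 3), which is 3.29-fold lower. The klf4-MO foreground on array 4 was below the 95th percentile of spots named Blank (718), so the ratio there, and with it the mean, the fold and the rank, is uncertain. As with both probes above, klf4-MO was the dimmer channel on all 3 arrays before normalisation. After background correction that held for these 3 members only.

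The members printed in 2 spots allow a comparison of ratios from separate places on the slide, though both spots entered the ratio that chose each member. On array 4 their log2 ratios before normalisation were above 0. They were 1.17 for CGENXEB_456012614_0, 1.36 for CGENXEB_456001485_0 and 0.77 for CGENXEB_456000794_0. The negative ratios on array 4 below thus came from normalisation, which the spots share. CGENXEB_456012614_0 had spots in blocks 10 and 12, with ratios of -1.92 and -1.87 on array 2, then -2.07 and -2.01 on array 1b and lastly -1.17 and -1.05 on array 4. Its spots differed far less from each other than array 4 differed from the other arrays, and its mean was -1.68 ± 0.501 (SD, n = 3). CGENXEB_456001485_0 had spots in blocks 5 and 31, with -1.47 and -1.26 on array 2, then -1.55 and -1.43 on array 1b and lastly -0.92 and -0.86 on array 4. It shared the order of the arrays with the probe before it, with the smallest difference on array 4 and a mean of -1.25 ± 0.317 (SD, n = 3). CGENXEB_456000794_0 had spots in blocks 12 and 26, with -1.40 and -1.19 on array 2, then -1.50 and -1.62 on array 1b and lastly -1.77 and -1.30 on array 4. Here the spots of array 4 were further apart than its arrays, whose mean was -1.46 ± 0.146 (SD, n = 3), and a STD-MO reading on array 1b was saturated.

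CGENXEB_456000387_0 was the only other member at -1 or lower on all 3 arrays. Its ratio was -1.35 on array 2, where the foreground was 2225 in klf4-MO and 3365.5 in STD-MO. It was -1.14 on array 1b (1292.5 and 4015) and -1.49 on array 4 (2137 and 1477). The arrays differed little for this probe, and the mean of -1.33 ± 0.176 (SD, n = 3) is 2.51-fold lower. On array 4 its klf4-MO channel was the brighter one as scanned, and the negative ratio there came from normalisation.

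For the other 5 of the 12 lowest members, 1 array lay above -1. CGENXEB_456005703_0 had ratios of -0.91, -1.60 and -1.49 on arrays 2, 1b and 4. CGENXEB_456007554_0 had -1.66, -0.62 and -1.35 on the same arrays. The array with the smallest difference thus changed from probe to probe: array 2 for the former and array 1b for the latter. CGENXEB_456011937_0 had -1.29, -0.98 and -1.12, with a mean of -1.13 ± 0.153 (SD, n = 3). CGENXEB_456003030_0 had -1.26, -0.72 and -1.39, and CGENXEB_456000798_0 had -1.24, -0.63 and -1.33. For all 3 of these, array 1b stood above arrays 2 and 4.

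The remaining 24 members had means from -0.95 to -0.61, which is 1.93-fold to 1.52-fold lower. Several of them were close to the same value on every array. The range over the 3 arrays was under 0.25 for 13 members of the whole set and 1 or more for 3. The rule held every ratio at -0.5 or lower, so members with means near that value had little room to vary. Small ranges among them follow in part from the choice, and the share of all probes with such ranges is not given here. The following examples were picked after their values were seen. CGENXEB_456012950_0 had the smallest spread, with -0.65, -0.64 and -0.71 on arrays 2, 1b and 4 and a mean of -0.66 ± 0.0386 (SD, n = 3). CGENXEB_456009443_0 had -0.69, -0.77 and -0.75, with a mean of -0.74 ± 0.0437 (SD, n = 3). CGENXEB_456014483_0 varied most among the 24, with -0.55, -1.24 and -0.77. The median SD over the 36 members was 0.166, against 0.216 over all 12931 probes, and the choice bears on the former.

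The rule required members to be low on every scanner array, and so in both dye orientations. Probes low in a single orientation had thus been left out, and the counts below cannot show whether ratios depended on dye. Within the set, no array and no dye orientation gave the lowest ratio throughout. The lowest of a member's 3 ratios was on array 2 for 10 members, on array 1b for 13 and on array 4 for 13. The ratio on array 1b, where klf4-MO was green, lay above those of both arrays with klf4-MO in red for 15 members, below both for 13 and between them for 8.

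Array 1a took no part in the choice of the members, and all 36 were below 0 on it. Over all probes 52.1% were. Of the 36, 25 (69.4%) were at -0.5 or lower on array 1a, against 6.42% of the 12931 probes, and 10 (27.8%) were at -1 or lower, against 1.63%. The members' median on array 1a was -0.64, a value that 4.43% of all probes reached, while the median of all probes was -0.01. This is 1 hybridisation, so there is no replicate error and no test. By its title it also carries the pair number of array 1b and has the same dye orientation, so it is no independent pair of RNA samples. Its direction rests on the title and on the table's format, since the other 3 columns held red over green. Over the 12931 probes of the table, its values correlated with array 1b at r = 0.56, with array 2 at 0.54 and with array 4 at -0.06. Members were low on arrays 2 and 1b by the rule, so low values on array 1a were likely for them. Of 94 probes chosen on arrays 2 and 1b alone, 62 (66.0%) were at -0.5 or lower on array 1a. Their median there was -0.70. The shares above thus do not set the members apart from probes chosen without array 4. Among the choosing arrays the table's values correlated at 0.16 (2 and 1b), 0.17 (2 and 4) and 0.06 (1b and 4), and the scanner ratios at 0.10, 0.17 and -0.02, so over all probes these arrays had little in common. The probes of an array share its slide, dyes and normalisation.

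The members that were lowest on the choosing arrays were mostly low on array 1a as well. Of the 12 with a mean of -1 or lower, 11 were at -0.5 or lower there, and of the other 24, 14 were. Over all probes 6.42% were. CGENXEB_456000396_0 was again the lowest, at -4.14 on array 1a, and CGENXEB_456008399_0 was at -3.29. Among the other probes at -1 or lower on all 3 scanner arrays, CGENXEB_456012614_0 was at -2.02, CGENXEB_456000794_0 at -1.43, CGENXEB_456011738_0 at -1.03 and CGENXEB_456000387_0 at -0.83. Thus 5 of these 6 were at -1 or lower on every array, while 1.63% of all probes were that low on array 1a. The 11 members above -0.5 on array 1a lay between -0.49 and -0.15. The one nearest to 0 was CGENXEB_456008025_0, which had -0.55, -0.67 and -0.60 on arrays 2, 1b and 4 but -0.15 on array 1a, and 23.1% of all probes were as low as that.

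The value table also holds the authors' own values for the 3 choosing arrays. For the members, they differed from the scanner ratios by a median of 0.099 and by at most 0.538 on the log2 scale. All 36 members were below 0 on all 4 arrays of the table, against 9.09% of all probes. At -0.5 or lower on all 4 were 22 members, and these were all of the 12931 probes that low (0.170%). Arrays 2, 1b and 4 of the table come from the hybridisations that chose the members, so only array 1a adds to the choice here. Their medians in the table were -0.82, -0.71 and -0.67 on arrays 2, 1b and 4, beside the -0.64 of array 1a. Compared within the table, array 1a was the lower one for 10 of the 36 against array 1b, for 13 against array 2 and for 18 against array 4. The choice favoured low values on arrays 2, 1b and 4 but not on array 1a. These medians and counts follow in part from that and do not show a smaller difference on array 1a.

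Leaving each array out of the choice showed how far it limits the set. At -0.5 or lower on single arrays were 1556 of the 12931 probes on array 2 (12%), 2.21% of them on array 1b and 5.82% on array 4. Arrays 1b and 4, which have opposite dye orientations, shared 48 probes at -0.5 or lower, and 36 of these (75.0%) were that low on array 2. Arrays 2 and 1b, also of opposite orientation, shared 94 such probes, and 36 of them (38.3%) were that low on array 4. Arrays 2 and 4, which both have klf4-MO in red, shared 215, of which 36 (16.7%) were that low on array 1b.

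The other 179 of these 215 probes were low where klf4-MO was red and did not reach -0.5 on array 1b, where it was green. On array 1b 109 of the 215 (50.7%) were above 0, against 49.97% of all probes, and their median of 0.02 was close to that of all probes. At 0.5 or higher on array 1b were 34 of the 215 (15.8%), against 2.97% of all probes. On array 1a 49 of the 215 (22.8%) were at -0.5 or lower, with a median of -0.08, against 6.42% of all probes. Of the 94 probes chosen on arrays 2 and 1b, 62 (66.0%) were that low on array 1a. Of the 48 chosen on arrays 1b and 4, 28 (58.3%) were. Both of these sets were chosen in part on array 1b, which has the pair number and dye orientation of array 1a. Array 1b thus removed more probes from the set than array 2 or array 4 did. It also had the lowest share of all probes at -0.5 or lower, at 2.21%, against 5.82% on array 4 and 12% on array 2. The shares kept by arrays 1b, 4 and 2 had the same order. On the array left out, the median was 0.02 for the 215 on array 1b, -0.27 for the 94 on array 4 and -0.77 for the 48 on array 2. Array 1b differs from arrays 2 and 4 in dye orientation and in pair number at once, and these cannot be told apart here. The cause of the larger removal was not tested.

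The colours differed in brightness, so the size of the members' ratios, and the sign of many on arrays 2 and 4, rested on normalisation. Before normalisation the median log2 ratio of klf4-MO over STD-MO over all probes was 0.55, -0.54 and 1.70 on arrays 2, 1b and 4, higher wherever klf4-MO was red. The members' medians at that step were -0.17, -1.40 and 1.19, and 22, 36 and 3 of the members were below 0 on these arrays. Compared with the median of all probes on the same array, 36 of 36 members were lower on arrays 2 and 1b and 35 on array 4. These arrays chose the members, so these counts follow largely from the choice and are no check of it. When each array was only centred on its median, with no correction for intensity, the members' medians were -0.67, -0.88 and -0.49 on arrays 2, 1b and 4.

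With that centring, 35 of the 36 members were below 0 on all 3 arrays and 16 were at -0.5 or lower. Of all 12931 probes, 36 were at -0.5 or lower on all 3 with it. The share of all probes below 0 on all 3 is not given here. These arrays chose the members, so the counts are a description. The threshold was met by 22 members on array 2 (14.0% of all probes), 36 on array 1b (3.33%) and 17 on array 4 (24.3%). CGENXEB_456000396_0 then had -3.91, -2.75 and -2.65 on arrays 2, 1b and 4. CGENXEB_456011738_0 had -1.47, -1.60 and -1.92. CGENXEB_456008399_0 had -2.02, -1.66 and -2.16. These 3 lowest members thus stayed below -1 on every array without the correction for intensity. So did CGENXEB_456000387_0, at -1.07, -1.26 and -1.04, and CGENXEB_456011937_0, at -1.10, -1.07 and -1.12. By contrast, CGENXEB_456001485_0 was at -0.32 on array 4 in place of -0.89. The member above 0 was CGENXEB_456003668_0, named after its value was seen, at 0.06 on array 4.

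Most members gave clear signal in both colours. Both channels were above local background plus 2 background SDs on all 3 arrays for 34 of the 36 members, against 85.9% of all probes. The exceptions, CGENXEB_456001864_0 and CGENXEB_456011968_0, named for this after their values were seen, missed this in the klf4-MO channel of array 2. Against the 95th percentile of 262 spots named Blank, all 36 members were brighter in both channels of arrays 2 and 1b and in the STD-MO channel of array 4. In the klf4-MO channel of array 4, where that percentile was 718 in foreground, 30 were brighter. The 6 others, which include CGENXEB_456011738_0, CGENXEB_456011937_0 and CGENXEB_456003030_0, did not stand above the Blank spots there. The share of all probes above these percentiles is not given here, so the counts cannot set the members apart.

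The threshold drew a line through a continuous range. Just inside it, CGENXEB_456001339_0 had -0.51, -0.72 and -0.60 on arrays 2, 1b and 4. CGENXEB_456002778_0 had -0.52, -0.88 and -0.58, and CGENXEB_456012756_0 had -0.80, -0.53 and -0.93. Just outside it, CGENXEB_456006570_0 had -0.80, -0.77 and -0.49, CGENXEB_456000930_0 had -0.58, -0.52 and -0.48, and CGENXEB_456000321_0 had -0.48, -0.63 and -0.55. All 3 probes just outside were at -0.64 or lower on array 1a, at -0.64, -0.83 and -0.64. Those just inside were at -0.53, -0.48 and -0.18 there, so the line does not separate the probes on an array it did not use.

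Flags kept other probes from being judged. An unflagged spot was missing on at least 1 array for 3245 probes. Of the 2557 with exactly 2 usable arrays, 23 were at -0.5 or lower on both. On array 1a 3 of these 23 were at -0.5 or lower, against 6.42% of the 12931 probes.

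The members were spread over the printing blocks of the slide. Within blocks, the first spots of the 11 members with library numbers under 2000 all lay in columns 20 to 22. Columns were not compared with those of all probes. Their 39 spots came from 33 members printed once and 3 printed in 2 spots. By their first spot the members lay in 24 of 32 printing blocks, with at most 3 in a block. A single pair of members sat in touching spots, CGENXEB_456000794_0 and CGENXEB_456000798_0 in column 21 of block 12. The second spot of CGENXEB_456000794_0, in block 26, gave -1.19, -1.62 and -1.30 on arrays 2, 1b and 4. Both spots of that probe were averaged into the ratio that chose it, so these values are a description. An effect of neighbouring spots was not tested. CGENXEB_456000798_0 has no second spot.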

How the data were processed

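Per the file headers, the scanner files are ImaGene output with red and green images combined. They hold deposited spot intensity as foreground and local background medians, neither subtracted nor normalised, and a flag per spot. The authors' deposited value table holds log2 values, and the steps behind them are not given in the sources used here.

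In R 4.3.3 with limma 3.58.1, intensities of arrays 2, 1b and 4 were corrected with normexp (offset 50) and then fitted with a global loess curve in which controls and flagged spots had weight 0. The latter were dropped, the sign of array 1b was turned and spots of a probe were averaged. Flags removed 7.46%, 7.70% and 14.7% of 16896 spots on arrays 2, 1b and 4.

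Value table rows carry numbers. They were taken to count the printed names in order, less Blank and ssDNA, the pair of control names with the highest mean correlation with the scanner ratios (0.8947; next pair, Blank and zGenomic, 0.8946). Other leading pairs renamed no member. The table's signs were set as red over green, for array 1a by the common format only.

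No test was made: members were chosen on the contrast itself, and array 1a is 1 hybridisation. The number of arrays limits the precision. Alternatives were other background corrections, normalisations, spot filters and thresholds, and leaving out each array. Named are members at -1 or lower on all 3 arrays, the 12 lowest means, those printed in 2 spots, 3 probes on each side of the threshold, and the extremes on array 1a; others are marked as picked later. The members and lists were chosen with earlier results of these data known.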

Additional observations from a re-analysis of the deposited data

Results flagged for a closer look

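Among the 16 named members, CGENXEB_456000794_0 had a single array apart from the rest in the authors' value table. Array 4 was at -1.79 there, while array 2 was at -1.40, array 1a at -1.43 and array 1b at -1.46, so that the gap made up 0.853 of the whole range. By chance about 1 in 20 such comparisons would show a gap this wide, and 16 were made. On the scanner ratios array 4 lay between the other 2 arrays. The cause was not tested.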

How the results depend on the processing

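The set held 29 to 53 probes under 11 other ways of choosing it on the 3 arrays, against 36, and 6 with a threshold of -1. Among the 11, scaling between arrays and the median of the spots gave the same 36, and neither could change a member's ratio. The set kept 28 of the 36 with the authors' table for these arrays (29 probes) and 16 of the 36 with median centring only (36 probes). Leaving out an array gave 48 to 215 probes, with 215 without array 1b, 94 without array 4 and 48 without array 2. The share at or below the threshold on array 1a was then 22.8% to 66.0%, and the median there -0.70 to -0.079, the value nearest 0 being without array 1b. That median was -0.70 with no background subtraction, -0.54 with median centring, -0.78 with the authors' table and -1.73 with a threshold of -1. The share at or below the threshold on array 1a was 52.8% with median centring and 75.9% with the authors' table, against 69.4%. Of the 11 ways, median centring gave the lowest share. Of probes chosen without array 1b, 35.3% were as low on it with a threshold of -1, 3.90% with median centring and 25.4% with no background subtraction, against 16.7%. Of those chosen without array 4, 85.7% were as low on it with a threshold of -1, against 38.3%. Both shares at a threshold of -1 rest on few probes, since 6 were that low on all 3 arrays. The cause of these differences was not tested. With both channels required above the Blank percentile on all 3 arrays, an alternative chosen after seeing the data, 30 members were left. None of 263 alternative mean ratios of the 19 named probes changed sign, and 8 moved by more than the probe's SD over the arrays. Many of them could not change sign. Scaling between arrays, the median of the spots and the filters on signal left each mean as it was. Leaving out an array averaged ratios that the rule had already set at -0.5 or lower for members. The lack of sign changes is therefore no evidence for the members. Each ratio already compares both RNAs of a numbered pair on 1 slide. No paired analysis was possible because no result comes from a test to which a block could be added. Weak signal limited 2 members in the klf4-MO channel of array 2 by local background and 6 in that of array 4 by the Blank percentile.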

Other observations

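Members were more frequent among probes with low library numbers, the 6 digits that end the number in a probe's name. Of the 36 members, 11 (30.6%) had a number under 2000, against 12.1% of all 12931 probes, and 6 (16.7%) had one under 1000, against 6.67%. The 4 lowest-numbered of the 12 strongest members were CGENXEB_456000387_0, CGENXEB_456000396_0, CGENXEB_456000794_0 and CGENXEB_456000798_0. The sources used here do not say what the order of the numbers stands for. Among the members' first spots, lower numbers lay in higher columns of a block, from column 22 for CGENXEB_456000396_0 to column 4 for CGENXEB_456014483_0. All 11 members under 2000 lay in columns 20 to 22, so library number and place on the slide cannot be told apart here. The excess of low numbers was noticed after the values were seen, and it was not tested.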
